A study of Mus musculus with 30 samples.

Results

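The sirtuins are the 7 NAD+-dependent protein deacylases of the mouse, Sirt1 to Sirt7, and all 7 were followed here by name across every group. They were 7 of the 20764 genes listed for hearts and 7 of the 54532 listed for HL-1 cells, and all 7 had enough reads to be tested in both tables (15443 and 14760 genes tested). Hearts came from female mice of a mixed C57Bl6J/N background (C57BL6 in the sample labels), 1 mouse per library and 3 libraries per group. Young mice (2 months) drank plain water, old mice (12 months) drank plain water (old H2O), and a second set of old mice had nicotinamide riboside (NR), an NAD+ precursor, in the drinking water at 3 g/l (old NR). Each of these was taken at Zeitgeber time ZT10 (day) and at ZT22 (night, under red light), where ZT counts hours from lights on. NR was given by cage, so mice of one group may have shared a cage. HL-1 is a mouse line derived from an atrial tumor. Its cultures, all of this 1 commercial line and 3 separate wells per group, were untreated or received FK866, an inhibitor of NAMPT (the enzyme that recycles nicotinamide into NAD+), FK866 with NR, or FK866 with NR and Ex527, a SIRT1 inhibitor. The comparisons therefore ask whether the mRNAs of the NAD+-consuming deacylases changed with time of day, age, NR supply or block of NAD+ synthesis.

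Sirtuins remove acetyl or longer acyl groups from lysines, and they split NAD+ at each turn, which ties their activity to the supply of NAD+. SIRT1, SIRT6 and SIRT7 are mainly nuclear, SIRT2 is mainly cytoplasmic, and SIRT3, SIRT4 and SIRT5 are mitochondrial. In heart muscle, SIRT1 is known for deacetylating FOXO factors and the clock protein PER2, and SIRT3 for deacetylating enzymes of fatty acid oxidation and respiration. Only mRNA was measured here, so neither protein nor activity is known from these values.

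The heart libraries held 3922137 to 7562215 counts (median 5534659) and the HL-1 libraries 21337922 to 35000109 (median 25529294). Duplicate reads had been removed from the hearts, where Myh6, the main heart myosin, had 9056 to 10336 counts although the totals differed by 1.93-fold. What duplicate removal did to the sirtuin and marker counts was not tested. Hearts carried the muscle markers, with a summed level of Myh6, Tnnt2, Actc1, Ryr2 and Tnni3 of 4648 to 6492 CPM (counts scaled to library size). The HL-1 libraries did not. Their sum of the same 5 genes was 0.26 to 4.41 CPM. The top of this range was FK866 NR culture 1, where Ryr2 had 77 counts (3.61 CPM) against a median of 0.5 counts over the 12 libraries. This culture was kept, and the source of these reads was not tested. Actc1 had 0 counts in all 12 libraries and Myh6 at most 6, and the atrial markers Nppa, Sln, Myl7 and Myl4 reached at most 3, 1, 24 and 27 counts. The 3 fibroblast markers Col1a1, Dcn and Pdgfra summed to 649 to 892 CPM in these cultures. The defining mRNAs of the labelled cell type are therefore at or near 0, and the cells are called HL-1 here only because the labels do. The first and the third old NR ZT10 hearts resembled each other more than any other pair of hearts in a group (a chi-square of 1.07 per gene), still beyond sampling noise, and were kept as 2 mice.

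Per kilobase of annotated exon, Sirt2 was the most abundant sirtuin in both systems and the mitochondrial members differed most between them. Levels are given as CPM per kilobase of exon, over all libraries of a system. The length is that of all annotated exons of a gene (from 2398 bases for Sirt4 to 6093 for Sirt5), not of the transcripts present. The order of the genes and their shares depend on it, and no other length was tried. In the 18 hearts the median level was 28.5 for Sirt2 (from 25.4 to 31.0), 13.4 for Sirt4, 11.4 for Sirt5, 10.3 for Sirt1, 9.09 for Sirt3, 5.66 for Sirt7 and 5.27 for Sirt6. Sirt2, whose protein deacetylates tubulin, was above all other members in all 18 hearts, with no overlap with Sirt4. Sirt4 to Sirt3 formed a middle group with overlapping ranges, in which Sirt4 exceeded Sirt5 in 18 of 18 hearts, Sirt5 exceeded Sirt1 in 17 and Sirt1 exceeded Sirt3 in 13. Sirt3 lay above Sirt7 in all 18 hearts without overlap. Sirt7 exceeded Sirt6 in 10 of 18 hearts, so these neighbours had no constant order.

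In the 12 HL-1 libraries the order was Sirt2 (median level 10.2), Sirt6 (6.81), Sirt7 (6.71), Sirt1 (5.24), Sirt4 (4.09), Sirt3 (1.04) and Sirt5 (0.547). Sirt6 and Sirt7 changed places from library to library, with Sirt6 higher in 7 of 12. Sirt4 exceeded Sirt3 in all 12 libraries, 3.67-fold at the median of the ratios, and Sirt3 exceeded Sirt5 1.83-fold. Sirt3 to Sirt5 made up 36.8% to 43.1% of the family's summed level in hearts and 14.1% to 18.6% in HL-1 cells. The tables were made from different library preparations and normalized separately, so this contrast was not tested, and library preparation and sample type cannot be told apart. Sirt5, which removes succinyl, malonyl and glutaryl groups in mitochondria, had only 70 to 141 counts in an HL-1 library, so small changes of it were not detectable there.

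**Figure D1:**
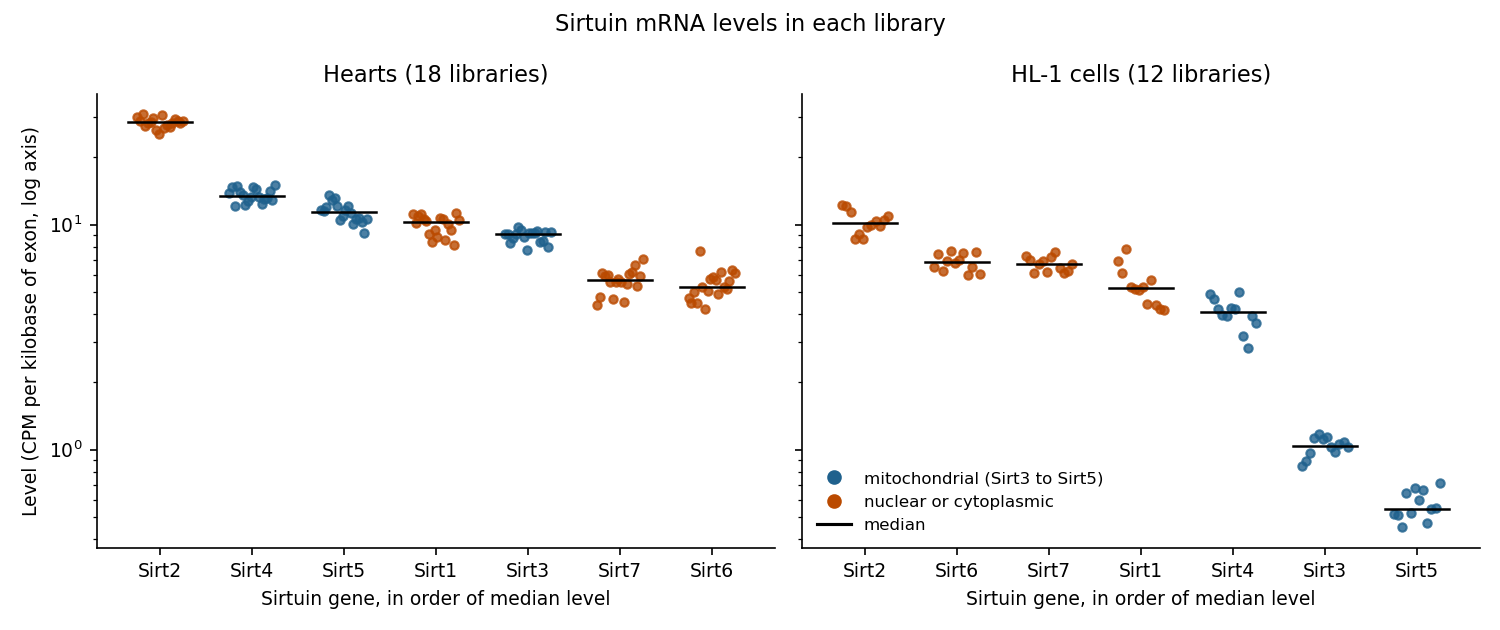
Level of each sirtuin mRNA in CPM per kilobase of exon (vertical log axis) in the 18 hearts (left) and the 12 HL-1 libraries (right), with 1 point per library, a line at the median and the genes ordered by median. Sirt2 leads both panels, and Sirt3 and Sirt5 sit lowest in HL-1 cells at medians of 1.04 and 0.547.

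Some counts carry a limit from neighbouring genes. Sirt3 (chromosome 7, 140863666 to 140882309 in GRCm38, minus strand) shares 418 bases of exon with Ric8a and 342 with Psmd13, both on the opposite strand. Sirt7 (chromosome 11, 120618372 to 120625240, minus strand) shares 124 bases with Mafg on the same strand. The heart libraries were stranded and reads over several genes were left out there. By contrast, the strand setting of the HL-1 counts is not given in the sources used here. HL-1 reads of Sirt3 and of Ric8a and Psmd13 therefore cannot be told apart in the shared bases. Median HL-1 counts were 159 for Sirt3, 974 for Ric8a and 2907.5 for Psmd13, so this limit applies to the HL-1 changes of Sirt3 given below.

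The promoter windows of the 2 members with calls, Sirt1 and Sirt5, are shown because they are where the family differs in clock-type and nuclear receptor motifs. Each runs from 250 bases before to 50 bases after a RefSeq start site (GRCm38.p6, read 5′ to 3′ on the gene's strand). In Sirt1 (chr10:63338986-63339285, minus strand) the capitals mark the E-box CACGTG, the element that CLOCK and BMAL1 bind. In Sirt5 (chr13:43365285-43365584, plus strand) they mark AGGTCA and its reverse complement, a half-site of nuclear receptors.
Sirt1: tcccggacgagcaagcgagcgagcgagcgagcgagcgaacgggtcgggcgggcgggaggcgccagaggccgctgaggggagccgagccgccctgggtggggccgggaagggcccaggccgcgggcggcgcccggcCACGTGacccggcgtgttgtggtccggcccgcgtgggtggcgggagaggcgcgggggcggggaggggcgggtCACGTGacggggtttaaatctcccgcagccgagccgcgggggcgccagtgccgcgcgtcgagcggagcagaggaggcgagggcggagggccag
Sirt5: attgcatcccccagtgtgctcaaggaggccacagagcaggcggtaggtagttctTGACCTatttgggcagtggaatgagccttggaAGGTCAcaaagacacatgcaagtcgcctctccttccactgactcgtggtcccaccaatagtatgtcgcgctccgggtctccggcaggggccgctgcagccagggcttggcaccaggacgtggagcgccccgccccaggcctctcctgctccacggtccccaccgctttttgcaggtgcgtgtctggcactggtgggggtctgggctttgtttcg
The Sirt1 window held 2 E-boxes, beginning 115 and 43 bases before the start site. Among all 32851 promoter windows 7.15% held at least 1 E-box on either strand and 0.594% held 2 or more, and no window of the other 6 sirtuins held one. The Sirt1 window was 79.0% G or C with 47 CG steps, against medians of 52.7% and 7 over all windows. The shares were not matched for base content. The Sirt5 window held AGGTCA at 2 places, 1 on each strand, against 16.3% of all windows with at least 1 and 1.81% with 2 or more, and no other sirtuin window held it. The D-box TTATGTAA (in 0.938% of all windows), the forkhead site TGTTTAC (3.65%) and the cyclic AMP response element TGACGTCA (1.79%) were in no sirtuin window. The GC box GGGCGG was in windows of 6 sirtuins (35.7% of all windows) and CCAAT in those of Sirt2, Sirt3 and Sirt5 (37.4%). The letters describe the windows only and show no binding. The motifs were picked after the windows had been read.

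No sirtuin was called between day and night. Comparing ZT10 with ZT22, edgeR called none of the 7 at an adjusted p under 0.05, whether in young hearts (14.4% of all genes tested were called), in old H2O hearts (4.2%), in old NR hearts (5.37%) or as the mean of the 3 groups of mice (13.9%). Clock genes in the same libraries moved far. Arntl, the gene of BMAL1, was lower at ZT10 by a log2 fold change of -4.53 (SE 0.09) as the mean over the groups, and Per2 was higher by 1.93 (SE 0.08). At an unadjusted p under 0.05, Sirt1 and Sirt2 passed in old H2O hearts and Sirt5 in old NR hearts and in the mean. DESeq2 called 0 of the 7 in each of these comparisons.

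Sirt1 had normalized counts (scaled by TMM to a common depth within a system) of 331, 302 and 321 in old H2O hearts at ZT10 and of 270, 247 and 281 at ZT22, so these groups did not overlap. The log2 fold change, ZT10 minus ZT22, was 0.25 (95% interval 0.05 to 0.46, edgeR adjusted p = 0.17). In young hearts it was 253, 297 and 281 at ZT10 and 240, 333 and 310 at ZT22, which overlap, with a log2 fold change of -0.10 (-0.31 to 0.11). The difference between these day-night changes, the age by time interaction, was 0.35 for Sirt1 (0.06 to 0.65) and was not called (edgeR adjusted p = 0.14), nor was it for any other sirtuin, against 6.89% of all genes (Sirt1 alone had an unadjusted p under 0.05, and DESeq2 called 0). Without the first young ZT22 heart, the lowest of the young in Sirt1, the interaction was 0.47 (edgeR adjusted p = 0.020) and Sirt1 was also called lower in old H2O than young hearts at ZT22 (-0.27, edgeR adjusted p = 0.048).

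Sirt2 in old H2O hearts gave a log2 fold change of 0.15 (0.02 to 0.29, edgeR adjusted p = 0.22) between the times. Sirt3 and Sirt4 had intervals that crossed 0 in all 3 groups of mice, with the mean over groups at 0.01 (-0.08 to 0.11) for Sirt3 and -0.01 (-0.12 to 0.09) for Sirt4. Sirt6 and Sirt7, with 44 to 148 and 90 to 234 counts in a heart, had the widest intervals, -0.24 to 0.15 for Sirt6 and -0.10 to 0.19 for Sirt7.

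**Figure D2:**
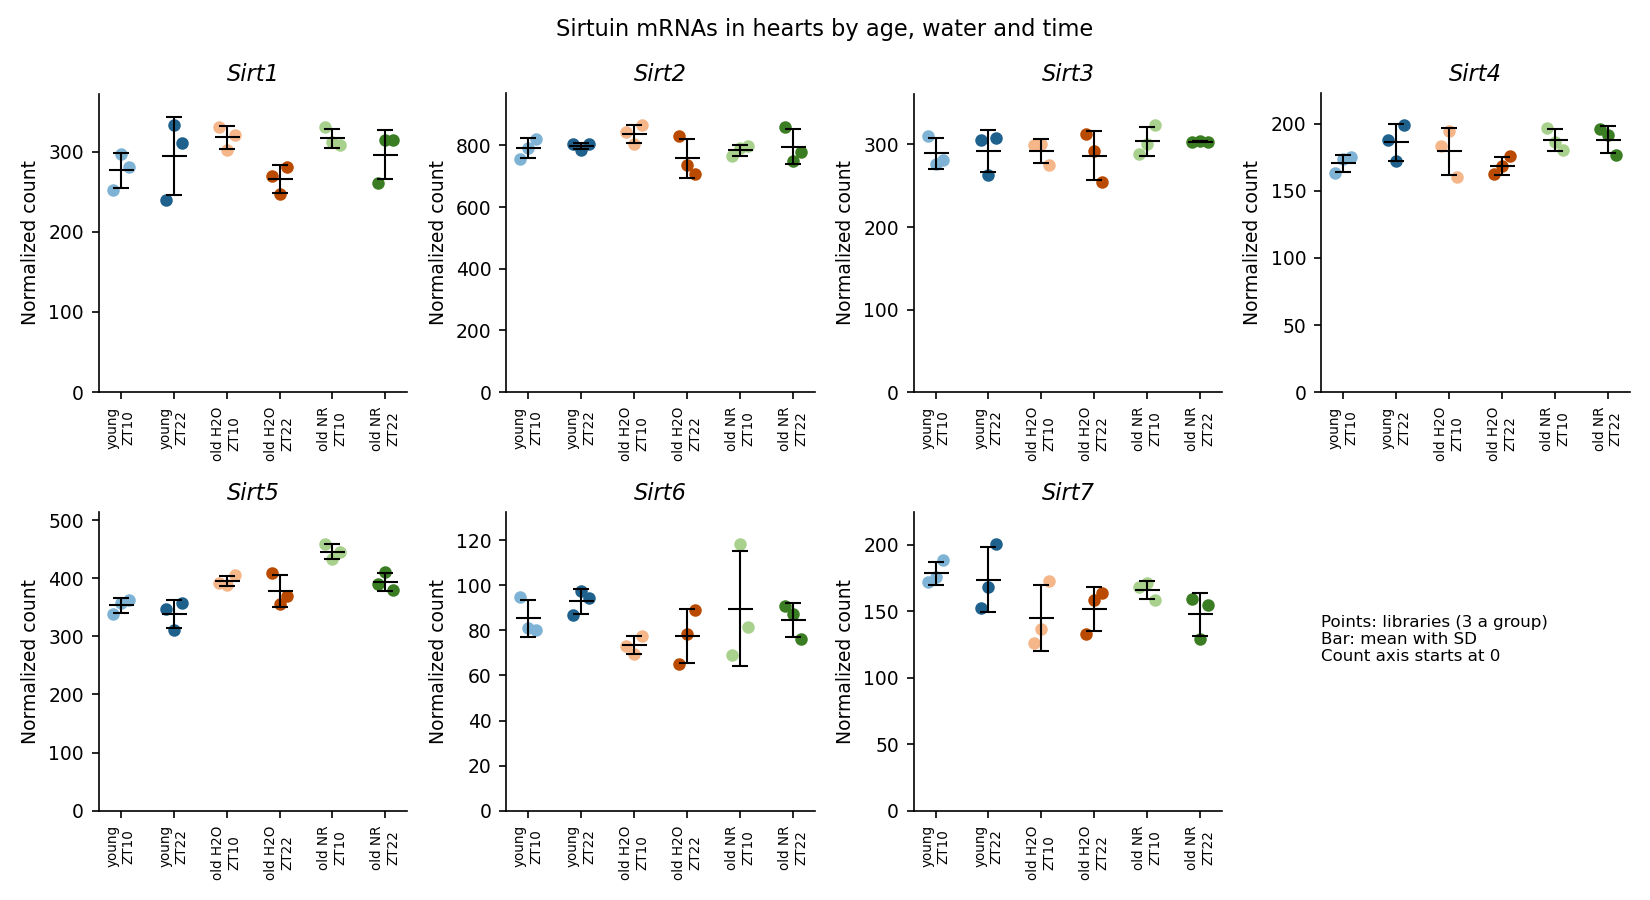
Normalized counts (vertical axes from 0) of the 7 sirtuins in hearts of young, old H2O and old NR mice at ZT10 and ZT22, with 1 point per heart and the mean with SD of 3 hearts. Sirt5 runs from 311 to 363 in young hearts and from 433 to 459 in old NR ZT10 hearts, while the points of most other members overlap between groups.

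With age, 1 of 7 sirtuins was called, Sirt5, by a small amount and not under every setting. In young hearts it had normalized counts of 339, 358 and 363 at ZT10 and of 347, 311 and 357 at ZT22. Old H2O hearts had 391, 388 and 406 at ZT10 and 408, 355 and 370 at ZT22. All 3 old H2O hearts at ZT10 exceeded every young heart, and at ZT22 the groups overlapped. As the mean over both times the log2 fold change was 0.16 (95% interval 0.06 to 0.26, or 1.11-fold, edgeR adjusted p = 0.036), where edgeR called 11.8% of all genes, so a count of 1 in 7 is near the background. At each time alone, where 5.87% and 14.1% of genes were called, no sirtuin was called by edgeR or DESeq2 (2 at ZT10, Sirt5 and Sirt7, and 1 at ZT22, Sirt5, had an unadjusted p under 0.05), and Sirt5 was at 0.16 (edgeR adjusted p = 0.18) at ZT10 and 0.15 (edgeR adjusted p = 0.14) at ZT22.

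The mean age call is at the edge of what 3 hearts a group show. DESeq2 gave the same 0.16 with an adjusted p of 0.12, and a fit of the compared groups alone gave an edgeR adjusted p of 0.058. It was lost without any 1 of 6 hearts, namely the old H2O ZT10 hearts 2 and 3, the old H2O ZT22 heart 1, the young ZT10 hearts 1 and 2 and the young ZT22 heart 2 (log2 fold changes from 0.13 to 0.18 over all 12 such fits, edgeR adjusted p from 0.028 to 0.099).

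Sirt7, a deacetylase tied to ribosomal RNA genes, lay the other way without a call. Its normalized counts were 172, 176 and 188 in young and 126, 136 and 173 in old H2O hearts at ZT10, and 153, 168 and 201 against 133, 159 and 164 at ZT22. The groups overlapped at both times. The mean log2 fold change was -0.24 (-0.42 to -0.06, edgeR adjusted p = 0.073), and it was called lower without the old H2O ZT10 heart 3 (-0.31, edgeR adjusted p = 0.023) or the young ZT22 heart 1 (-0.28, edgeR adjusted p = 0.044). Sirt6 was at -0.23 (-0.47 to 0.02). Sirt1 to Sirt4 lay between -0.03 and 0.02, with intervals from -0.16 to 0.17 at the widest.

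NR gave no sirtuin call against old H2O hearts at ZT10, at ZT22, as the mean of both times or as an interaction with time, where edgeR called 0.285%, 0.35%, 0.337% and 0.343% of all genes. These shares are not stable, since the 44 genes called at ZT10 became 0 to 22 without 1 heart and the 54 at ZT22 became 2 to 78. At an unadjusted p under 0.05, 1 sirtuin passed at ZT10 and 1 in the mean, Sirt5 each time, none passed in the other 2 comparisons, and DESeq2 called 0 in all 4. Sirt5 had 459, 433 and 446 normalized counts in old NR ZT10 hearts, the 3 highest values of the 18 hearts, and 391, 410 and 380 in old NR ZT22 hearts. The difference from old H2O hearts, on the log2 scale, was 0.17 (0.04 to 0.31, edgeR adjusted p = 0.32) at ZT10, where the groups did not overlap, and 0.07 (-0.06 to 0.21) at ZT22. With these data, a rise of Sirt5 with NR beyond 0.31 at ZT10 or 0.21 at ZT22 lies outside the intervals.

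Against young hearts, old NR hearts had 1 sirtuin called at each time, Sirt5, where 4.28% of all genes were called at ZT10 and 14.2% at ZT22. The groups did not overlap at either time. At ZT10 Sirt5 was higher by 0.34 (0.20 to 0.47, or 1.26-fold, edgeR adjusted p = 0.0044), a call that held without any 1 heart (edgeR adjusted p from 0.0095 to 0.028), in DESeq2 and with the similar old NR hearts 1 and 3 summed into 1 library (0.33, edgeR adjusted p = 0.016). At ZT22 it was higher by 0.22 (0.09 to 0.36, edgeR adjusted p = 0.028), and this call was lost in DESeq2 (adjusted p = 0.10), without the old NR ZT22 heart 2 (edgeR adjusted p = 0.13) and without the young ZT22 heart 2 (edgeR adjusted p = 0.16). These comparisons share young hearts with those of age and old NR hearts with those of NR, so they are not independent of them.

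Markers of other cells moved between the same hearts, and their part in the Sirt5 values was not tested. In bulk tissue, fewer cells of a type and less RNA per cell cannot be told apart. All 3 macrophage markers were called higher in old H2O hearts as the mean of both times, with summed levels of 114 to 134 CPM at ZT10 and 140 to 153 at ZT22 against 106 to 120 and 104 to 112 in young hearts and 117 to 123 and 94.2 to 112 in old NR hearts. The 3 fibroblast markers summed to 678 to 708 CPM in young, 599 to 672 in old H2O and 529 to 572 in old NR hearts at ZT10, and to 660 to 685, 624 to 689 and 566 to 610 at ZT22. Among them only Col1a1, a collagen gene, was called lower in old H2O than young hearts as the mean of both times (-0.45, SE 0.06). It was also called lower in old NR than young hearts at ZT10 (-0.77, SE 0.09) and ZT22 (-0.96, SE 0.09). Sirt5 was called higher in these comparisons. The median log2 fold change of the 3 fibroblast markers in them was 0.05, -0.18 and 0.04, in the same order. Their summed levels did not overlap between old NR and young hearts at ZT10 or at ZT22. At ZT22, 1 of the 3 was called higher and 1 lower in old H2O than young hearts. The 3 endothelial markers summed to 1117 to 1220 CPM in young and 962 to 1050 in old NR hearts at ZT22, where edgeR called 1 lower, Kdr (-0.32, SE 0.09), and DESeq2 all 3, and to 961 to 998 and 897 to 967 at ZT10, where neither called any (2 at an unadjusted p under 0.05). Of 3 adipocyte markers none was called by either tool, and 0 had an unadjusted p under 0.05, in the 14 heart comparisons. These markers had only 3 to 65 counts a heart, and their sum ran from 3.82 to 22.1 CPM within the old H2O ZT22 hearts. The lack of calls cannot show that the adipocyte share was equal. Of the red blood cell markers 1 of 3, Alas2, was called higher, and their sum was 53.2 to 72.7 CPM in old H2O, 54.5 to 71.9 in old NR and 31.2 to 52.7 in young hearts. Atrial markers summed to 115 to 127 CPM in old NR ZT10 hearts and to 337 to 497 in old H2O ZT10 hearts. Between these, 3 of 4, Myl4, Myl7 and Sln, were called lower with NR, calls kept in 0, 1 and 1 of 6 fits without 1 heart. The sum was 151 to 417 CPM in young ZT10, 126 to 258 in young ZT22, 112 to 315 in old H2O ZT22 and 162 to 229 in old NR ZT22 hearts. In old H2O hearts edgeR called 1 of the 4 higher at ZT10 than ZT22 (4 at an unadjusted p under 0.05) and DESeq2 0. Against young hearts at ZT10 neither called any (3 at an unadjusted p under 0.05). None of the 5 cardiomyocyte markers was called by edgeR or DESeq2 in the 14 heart comparisons, with 0 or 1 of them at an unadjusted p under 0.05. After duplicate removal, Myh6 and Actc1 had 9056 to 10336 and 2549 to 2847 counts a heart, although the totals differed by 1.93-fold. Their values in CPM therefore partly followed depth, and the lack of calls cannot show that the cardiomyocyte share was equal.

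FK866 raised Sirt1 in HL-1 cells, and Sirt1 had the largest log2 fold change of any sirtuin in the 20 comparisons. Untreated cultures had 605, 585 and 576 normalized counts and FK866 cultures 950, 841 and 1076. Every FK866 culture exceeded every untreated one. The log2 fold change was 0.70 (95% interval 0.49 to 0.91), which is 1.62-fold, with an edgeR adjusted p of 0.00012. Sirt1 was the 1 of 7 sirtuins called at an adjusted p under 0.01 and a change over 1.5-fold, where 4.59% of all genes were called, and 9.58% of genes changed by more. The call held in all 6 fits without 1 culture (0.61 to 0.78) and under all 7 other settings tried.

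With NR added to FK866, Sirt1 lay between both groups. FK866 NR cultures had 730, 717 and 706 normalized Sirt1 counts, all below every FK866 culture and above every untreated one. The log2 fold change against FK866 was -0.42 (-0.62 to -0.21, edgeR adjusted p = 0.0052), past the p threshold but short of 1.5-fold, so no sirtuin was called here (4.81% of all genes were). Against untreated cultures Sirt1 stayed at 0.28 (0.07 to 0.49, edgeR adjusted p = 0.048), not called (0.901% of genes were, a share that fell to 0 genes in 5 of 6 fits without 1 culture). With Ex527 added, Sirt1 had 730, 613 and 782 counts. Its log2 fold change against FK866 NR was -0.02 (-0.23 to 0.19, edgeR adjusted p = 0.93), an interval that holds changes of up to about 0.2 either way, and no sirtuin was called (0.596% of genes were). Against FK866 alone it was -0.44 (-0.64 to -0.23, edgeR adjusted p = 0.0089), where 1.27% of genes and no sirtuin were called, and against untreated cultures 0.26 (0.06 to 0.47, edgeR adjusted p = 0.074), where 1.42% of genes and no sirtuin were.

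Sirt2 moved less than the fold minimum. It had 1290, 1364 and 1424 normalized counts in untreated, 1602, 1586 and 1480 in FK866, 1130, 1179 and 1124 in FK866 NR and 1276, 1305 and 1348 in FK866 NR Ex527 cultures. FK866 NR cultures were the 3 lowest of the 12 and FK866 cultures the 3 highest. FK866 NR against FK866 gave -0.44 (-0.57 to -0.31, edgeR adjusted p = 0.00012), and FK866 NR against untreated -0.25 (-0.38 to -0.12, edgeR adjusted p = 0.016). FK866 alone gave 0.19 (0.06 to 0.32, edgeR adjusted p = 0.030). With Ex527, Sirt2 lay above FK866 NR by 0.19 (0.06 to 0.33, edgeR adjusted p = 0.069), and the groups did not overlap.

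Sirt3, the main mitochondrial deacetylase, had the opposite signs to Sirt1 and Sirt2, both with FK866 and with NR added to it. Its normalized counts were 163, 167 and 159 untreated, 130, 138 and 149 with FK866, 174, 181 and 173 with FK866 NR and 176, 159 and 152 with Ex527 as well. The FK866 cultures were the 3 lowest of the 12. FK866 gave -0.23 (-0.47 to 0.00, edgeR adjusted p = 0.14) and FK866 NR against FK866 0.34 (0.10 to 0.57, edgeR adjusted p = 0.032). Sirt4, a mitochondrial lipoamidase and ADP-ribosyltransferase, was at 0.41 with FK866 (0.09 to 0.73, edgeR adjusted p = 0.062), and Sirt5 at -0.28 (-0.66 to 0.10). For Sirt6 and Sirt7, the values of all 6 HL-1 comparisons lay between -0.05 and 0.15, and their groups overlapped in each. At an adjusted p under 0.05 with no minimum fold, 2 sirtuins passed for FK866 (24.8% of genes did), 3 for FK866 NR against FK866 (28.9%), 2 for FK866 NR Ex527 against FK866 (12.2%), 2 for FK866 NR against untreated (23.9%), and none for FK866 NR Ex527 against FK866 NR (7.17%) or against untreated (16.3%). DESeq2 called Sirt1 with FK866 and 0 sirtuins in the other 5 comparisons by the call rule, and at an unadjusted p under 0.05 edgeR passed 3 for FK866 (36.6% of all genes passed), 3 for FK866 NR against FK866 (40.2%), 2 each for FK866 NR Ex527 against FK866 (27.1%) and for FK866 NR against untreated (39.3%), and 1 each for FK866 NR Ex527 against FK866 NR (23.2%) and against untreated (33.1%), so these counts are near the background.

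**Figure D3:**
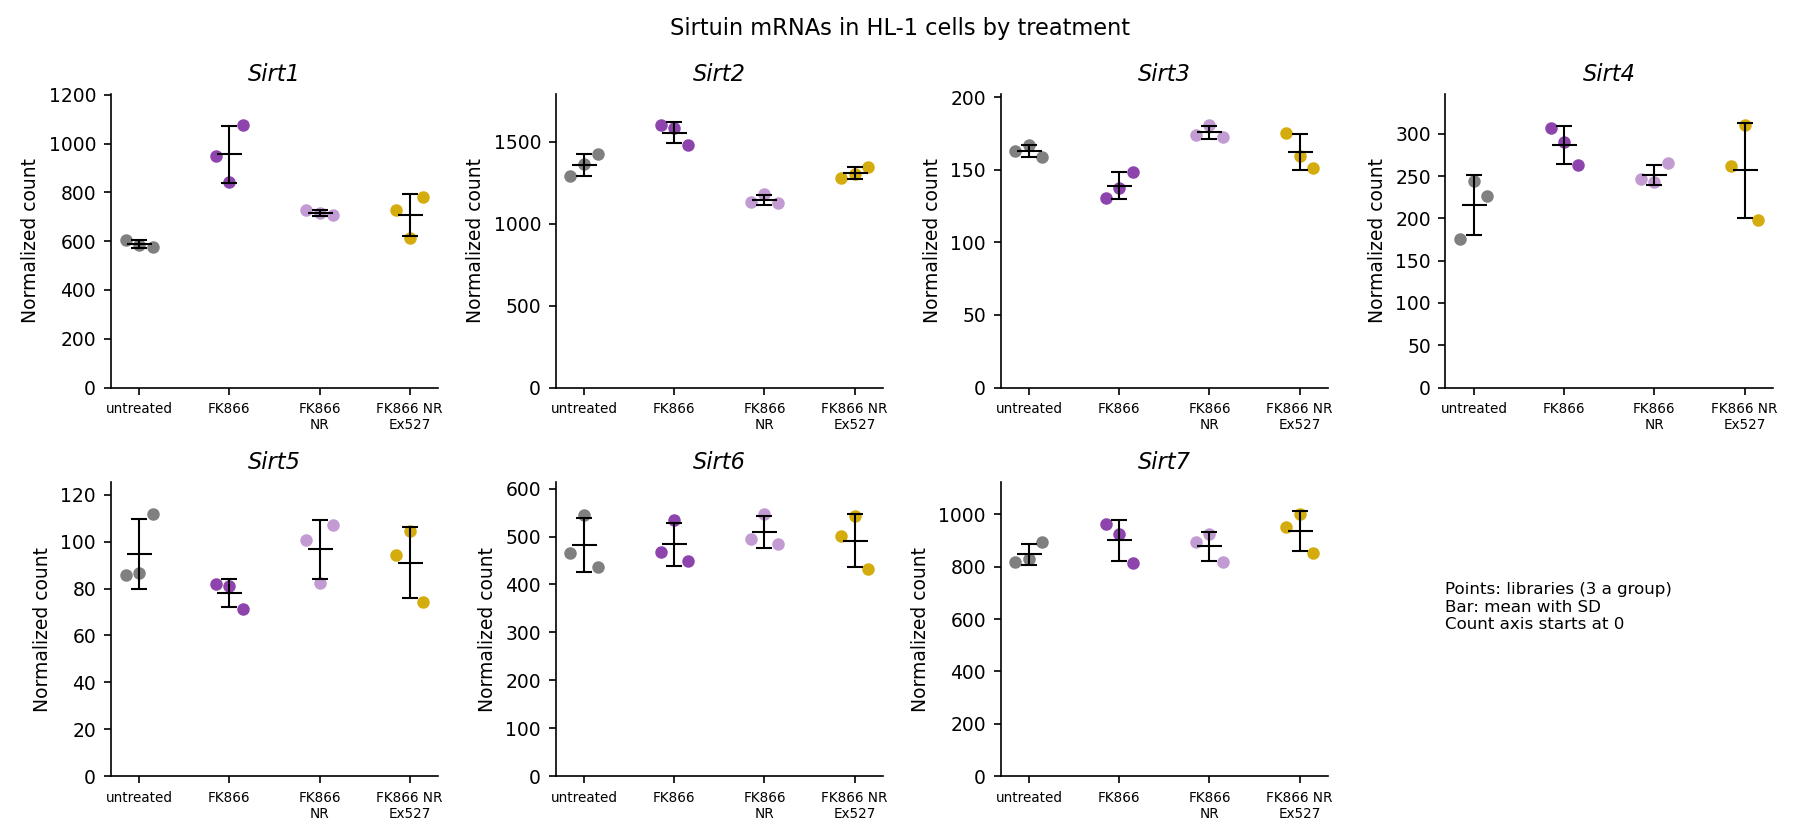
Normalized counts (vertical axes from 0) of the 7 sirtuins in HL-1 cells, untreated or with FK866, FK866 NR or FK866 NR Ex527, with 1 point per culture and the mean with SD of 3 cultures. Sirt1 is highest with FK866 (841 to 1076 against 576 to 605 untreated) and in between with NR, and Sirt6 and Sirt7 overlap throughout.

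Markers of other cell types moved with FK866 as well, and their part in these values was not tested. With FK866, the summed fibroblast markers were 649 to 666 CPM against 805 to 848 untreated, with 1 of 3, Pdgfra, called lower (-0.96, SE 0.12), and 750 to 794 with FK866 NR. Tnnt2, a troponin gene and the 1 cardiomyocyte marker with enough reads to be tested, was called higher with FK866 (log2 fold change 2.87, SE 0.46) and lower with NR on top of it (-2.12, SE 0.43), at 4 to 43 counts a library, and the sum of the 5 was 0.95 to 1.92 CPM against 0.51 to 0.55. Alas2, a heme synthesis gene, was the 1 red blood cell marker tested and was called lower with FK866 (a call kept in 1 of 6 fits without 1 culture), the summed list being at 2.76 to 5.72 CPM against 8.04 to 8.65.

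Among the known regulators and nuclear targets of SIRT1 (14 genes, all tested), FK866 changed 1 by the call rule. This count is near the background, where 4.59% of all genes were called. Hic1, a transcriptional repressor whose known targets include Sirt1, fell by 0.72 on the log2 scale (SE 0.08), and with NR it was 0.61 (SE 0.08) above FK866. A part of Hic1 in the Sirt1 values was not tested. The median of the 14 was 0.04 with FK866, beside 0.02 for all genes. Per2, whose protein is a SIRT1 substrate, was called higher than untreated in FK866 NR Ex527 cultures (0.71, SE 0.10) in all 6 fits without 1 culture. In FK866 NR cultures it was at 0.61 (SE 0.10), a call kept in 1 of 6 such fits and lost under the other filter and the replicate block. In hearts the same list had 7 of 14 called between the times as the mean of the groups (13.9% of all genes were), 3 higher and 4 lower at ZT10, led by Arntl, Per2 and Clock (-0.94, SE 0.06), and 3 called with age (11.8% of all genes were). With NR, 0 were called as the mean of both times by edgeR or DESeq2 (3 at an unadjusted p under 0.05), while 2 were called by both tools in the NR by time interaction, Hic1 (0.82, SE 0.16) and Arntl (-1.36, SE 0.26), which edgeR kept in 6 and 9 of 12 fits without 1 heart.

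Of the 14 genes of NAD+ supply, 12 were tested in HL-1 cells and 13 in hearts. FK866 lowered 1 in HL-1 cells (4.59% of all genes were called), Naprt, the first enzyme of the route from nicotinic acid (-0.71, SE 0.16). This call was kept in 1 of 6 fits without 1 culture. Nampt itself, whose product FK866 blocks, was at -0.20 (SE 0.06) and was not called. With age 2 of 13 were called in hearts, where 11.8% of all genes were, so this count is near the background. Nmrk2, a kinase that turns NR into NMN, was lower (-0.43, SE 0.11). Nmnat3, a mitochondrial NMN adenylyltransferase, was higher by 0.19 (SE 0.06). Between the times 1 of 13 was called as the mean of the groups (13.9% of all genes were), Nmnat3, higher at ZT10 by 0.15 (SE 0.04). Of the age calls, that of Nmrk2 was kept in 11 of 12 fits without 1 heart and that of Nmnat3 in 8. DESeq2 called Nmnat3 neither with age nor between the times. With NR 0 of 13 were called as the mean of both times by edgeR or DESeq2, and 2 had an unadjusted p under 0.05. In the NR by time interaction both tools called 1, Nmrk2 (1.17, SE 0.22, kept by edgeR in 9 of 12 fits without 1 heart), and at ZT10 alone edgeR called 0 and DESeq2 1. Nmrk2, Hic1 and Arntl are named for this interaction after their values were seen. Of 8 other NAD+-consuming enzymes, 1 was called with FK866 and with NR on top of it, where 4.59% and 4.81% of all genes were. It was Cd38, an NAD+ glycohydrolase, lower with FK866 (-0.61, SE 0.05) and higher with NR on top of it (0.85, SE 0.05). In hearts 2 of 7 tested were called with age (11.8% of all genes were), both lower in old H2O than young hearts. They were Cd38 (-0.35, SE 0.07) and Parp2 (-0.22, SE 0.07). The Parp2 call was kept in 3 of 12 fits without 1 heart and was not made by DESeq2.

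Of 14 mitochondrial enzymes known as substrates of SIRT3 to SIRT5, 12 were tested in HL-1 cells. In the 6 comparisons 0 of 12 were called by edgeR or DESeq2. At an unadjusted p under 0.05, 9 of 12 passed for FK866 NR against untreated (39.3% of all genes did), with a median log2 fold change of -0.21 beside 0.00 for all genes. For FK866 NR against FK866 7 passed (40.2%), with a median of -0.18 beside 0.01. The other comparisons had fewer. FK866 against untreated had 2 (36.6%, median 0.02) and FK866 NR Ex527 against untreated 2 (33.1%, median -0.06). FK866 NR Ex527 had 4 against FK866 (27.1%, median -0.05) and 5 against FK866 NR (23.2%), with a median of the other sign, 0.14.

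By the Pearson r of log2 CPM over the 18 hearts, the genes most like Sirt5 among 11020 compared were Gstm4 (r = 0.883), a glutathione transferase, and Sardh (r = 0.861), the mitochondrial sarcosine dehydrogenase. Over the 12 HL-1 libraries, those most like Sirt1 among 11566 were Prkx (r = 0.955), a protein kinase, and Klf6 (r = 0.954), a zinc finger transcription factor. The libraries share treatment groups and depth, so these values are descriptions.

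**Figure D4:**
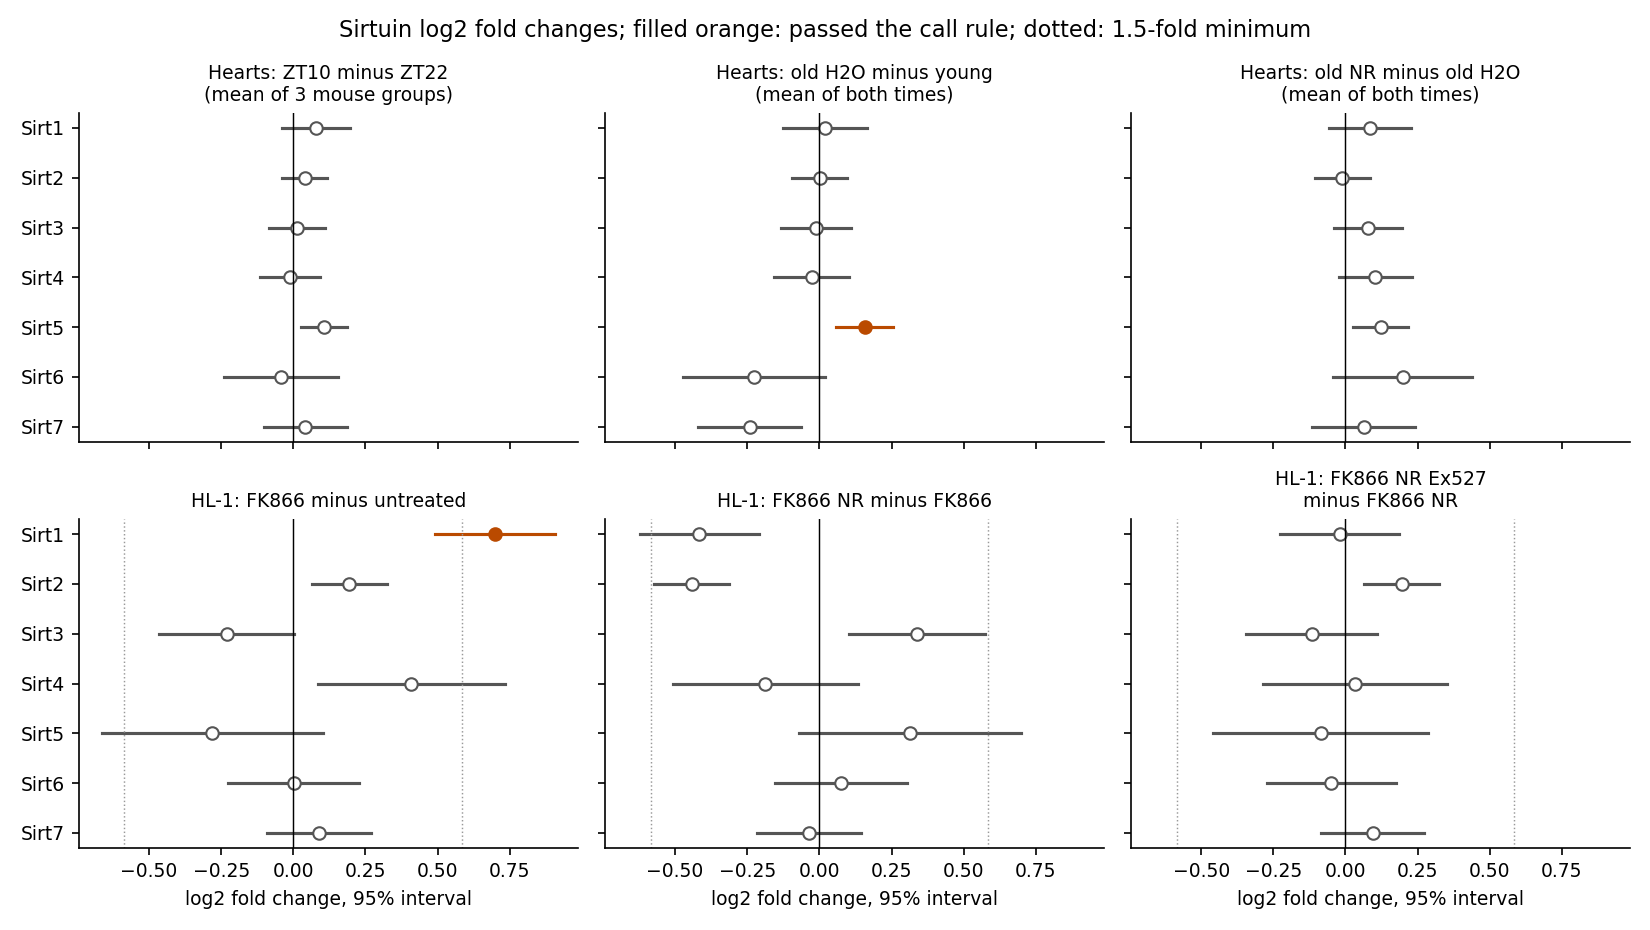
Log2 fold change (horizontal axis) of the 7 sirtuins with its 95% interval in 3 heart comparisons (top) and 3 HL-1 comparisons (bottom), where filled orange points passed the call rule and dotted lines mark the 1.5-fold minimum used for HL-1 cells. The called points are Sirt5 with age (0.16) and Sirt1 with FK866 (0.70).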

How the data were processed

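RNA was sequenced from 18 mouse hearts and 12 HL-1 cultures, 3 libraries per group. For the hearts, the authors trimmed reads (Trimmomatic 0.39), aligned them to mm10 (STAR 2.7.10a), removed duplicates (Picard 3.0.0) along with reads that mapped to several places, to ribosomal RNA or to the mitochondrial genome, left out reads over several genes, and deposited counts over exons (featureCounts 2.0.4) without normalization. They also deposited size-factor normalized values, a score that was not used for tests. The table labelled as normalized holds the counts, since its totals differ by 1.93-fold and those of the other by 1.10-fold. The HL-1 files deposited by the authors hold unnormalized counts and FPKM values. The deposited FPKM values served as an alternative for levels. HISAT2 is among the tools in the submitters' processing notes for HL-1, and its version is not given in the sources used here.

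Counts were fitted with edgeR 4.0.16 (limma 3.58.1, R 4.3.3), TMM and the two-sided quasi-likelihood F-test, all hearts together and all HL-1 libraries together, with Benjamini-Hochberg adjustment over all genes tested. Heart genes had an average count over 5 and were called at an adjusted p under 0.05. HL-1 genes passed filterByExpr and were called at an adjusted p under 0.01 and over 1.5-fold. Intervals are 95% intervals from the fit. Levels use the summed exon length of GENCODE M21 on GRCm38, and all 7 sirtuins matched by identifier. Promoter windows are from RefSeq. The fits were tested on simulated counts. Alternatives were DESeq2 1.42.0, its size factors, other filters, the groups compared alone, the replicate number as a block and leaving out each library, and 1 was chosen after seeing the data (summing 2 similar hearts).

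The members, lists and tests were chosen with earlier results of these data known. Named were all 7 sirtuins, list genes called in an HL-1 or mean heart comparison (at most the 3 largest per list and comparison), Nampt as the target of FK866, chosen after its values were seen, and for each called sirtuin the 2 genes of highest r with an average normalized count of at least 50. Heart values of the mitochondrial enzymes are not reported here.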

Additional observations from a re-analysis of the deposited data

How the results depend on the processing

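No sirtuin value that was called, in the main fit or under an alternative, changed direction, and of 2016 alternative log2 fold changes 110 differed in sign from the reported ones, all uncalled and the largest at 0.22 as reported. Counts of sirtuins called moved as follows, and the cause was not tested. For old H2O against young as the mean of both times (1 as reported), DESeq2 gave 0, the groups compared alone 0, and fits without 1 heart 0 to 2. For old NR against young at ZT22 (1), DESeq2 gave 0, the groups compared alone 0, and fits without 1 heart 0 to 1. Fits without 1 heart gave 0 to 1 for the mean of ZT10 against ZT22 (Sirt5, without the old H2O ZT22 heart 1 or the young ZT22 heart 3), for old H2O against young at ZT22 and for the age by time interaction (Sirt1, without the young ZT22 heart 1). With an adjusted p under 0.05 and no minimum fold, 2 were called for FK866, 3 for FK866 NR against FK866, 2 for FK866 NR Ex527 against FK866 and 2 for FK866 NR against untreated, in place of 1, 0, 0 and 0. The other comparisons kept their counts in all settings run. Counts over all genes moved more. For NR at ZT10 the 44 became 0 to 22 without 1 heart, 234 with the groups compared alone and 0 with the similar hearts summed, for NR at ZT22 the 54 became 2 to 78 without 1 heart and 2 with the groups compared alone, and for FK866 NR against untreated the 133 became 0 in 5 of 6 fits without 1 culture (427 in the other), 0 under the other filter, 8 with the replicate block, 342 by DESeq2 and 764 with no filter. Replicate numbers showed little pairing at the median, where deviations of same-numbered libraries had a correlation of 0.023 in hearts and 0.013 in HL-1 cells. In hearts 5 of 45 same-numbered pairs exceeded 0.1, against 2 of 90 other pairs. The first ZT22 hearts of the old H2O, old NR and young mice had the lowest totals of the 18 (3922137, 4364594 and 4538090). Whether these hearts share a further difference was not tested. With the replicate block, 2 sirtuins (Sirt5 and Sirt7) were called for the mean age difference in place of 1, and no other count moved. Of 70 group levels, 69 stayed within 1 SD when library totals replaced TMM, and all 28 HL-1 levels did with the deposited FPKM. The FPKM were 0.968 to 1.014 times the values computed from the same counts, exon lengths and library totals. Both alternatives therefore vary the library scaling only and do not test the exon length.

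With 3 libraries per group, heart changes in sirtuins of about 0.2 on the log2 scale sit near the threshold. Sirt6 in hearts (44 to 148 counts) and Sirt5 in HL-1 cells (70 to 141) had the fewest reads. The adjusted p-values rest on a spread estimate shared across genes, and cage and day of collection are not in the labels.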

Other observations

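The enzymes that share substrates with the sirtuins, but do not use NAD+, were also counted. Of 11 zinc-dependent deacetylases, all tested in hearts, 3 were called between the times as the mean of the 3 groups of mice (13.9% of all genes were). Hdac4, a class IIa deacetylase that represses MEF2 targets in muscle, was higher at ZT10 by 0.57 (SE 0.05), Hdac11 was higher by 0.19 (SE 0.06), and Hdac9 was lower (-0.18, SE 0.05). With age 1 of 11 was called, Hdac7 at -0.23 (SE 0.06), where 11.8% of all genes were, so this count is near the background. With NR 0 were called by edgeR or DESeq2 (1 at an unadjusted p under 0.05). Of 11 lysine acetyltransferases, which add the groups that sirtuins remove, 2 were called with age (11.8% of all genes were). They were Crebbp at -0.27 (SE 0.06) and Naa10 at -0.21 (SE 0.06). The Naa10 call was kept in 3 of 12 fits without 1 heart and was not made by DESeq2. As means over the groups, 0 acetyltransferases were called with time or NR by edgeR or DESeq2 (2 and 1 at an unadjusted p under 0.05). In young hearts alone, where 14.4% of all genes were called, edgeR called 2 lower at ZT10, Kat8 (-0.28, SE 0.09) and Kat2a (-0.20, SE 0.07). Each was kept in 1 of 6 fits without 1 heart, and DESeq2 called 0. These 2 are named after their values were seen. In HL-1 cells edgeR called 0 of the 9 zinc-dependent deacetylases tested and 0 of the 11 acetyltransferases in the 6 comparisons, with 0 to 4 and 2 to 7 at an unadjusted p under 0.05, and DESeq2 called 1, an acetyltransferase in FK866 NR against untreated.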
